A study of Nematostella vectensis with 123 samples.

Results

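In Nematostella vectensis, the starlet sea anemone, single embryos were profiled over time. For 98 transcript models the median over embryos was low before 12 h of label time and high between 18 and 24 h. It was low again between 36 and 48 h. The 98 were picked by these measured levels among 40499 models counted in all. Of those, 11764 reached a median of 10 CPM at 18 to 24 h (counts scaled to 1000000 counts on transcript models per embryo). The share picked was 0.833%. A model was kept if its median at 0 to 6 h and at 6 to 12 h lay at or below its 18 to 24 h median divided by 4. Its median at 12 to 18 h could not exceed the 18 to 24 h median divided by 1.5. Its medians at 36 to 42 h and at 42 to 48 h could not exceed that level divided by 2.5. Up to 200 models were allowed, and 98 qualified.

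The study made CEL-Seq profiles (barcoded, linearly amplified RNA) of 123 single embryos, and the labels name no strain, genotype or treatment. Fertilized eggs were freed of jelly with cysteine, and each embryo was set aside at the 4-cell stage, kept at 20 °C in dilute sea water and frozen alone at its own time. Each carries 1 time point, from -20 to 4320, read here as minutes. Label time rises over embryos 1 to 73, which cover 0 to 48 h, with embryo 50 (-20 min) counted at 0 to 6 h. Embryos 74 to 123 cover 39 to 72 h in falling order of number and were not used to pick the models. After libraries with fewer than 50000 counts and embryo 27 were left out, the first number block held 10, 9, 8, 8, 9, 9, 9 and 9 embryos in 8 steps of 6 h. The second held 4, 8, 9, 9, 9 and 10 embryos in 6 such steps from 36 to 42 h on.

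Gastrulation is the movement that turns a hollow ball of cells into an embryo with an inner and an outer layer. In Nematostella the future inner layer folds in at one pole, and the gastrula later becomes a swimming planula larva. Genes that are on only around this time include, in many animals, transcription factors and signalling molecules that set up the layers. The labels name the 4-cell stage at the start and the late planula at the end, and no stage between, so it was not checked that the 18 to 24 h embryos were gastrulae. The RefSeq gene table (assembly jaNemVect1.1, 38762 genes) shares 0 identifiers with the 40499 models. The models therefore carry no gene name, role or sequence here and are given by identifier.

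Depth at 18 to 24 h was 535853 to 1706574 counts per embryo, and 58680 to 2646585 over the 120 embryos used. A model with no count at 18 to 24 h could have been present at up to 1.76 to 5.60 CPM depending on the embryo, taking 3 counts as the limit, and at 0 to 6 h at up to 1.84 to 5.96 CPM. These limits cover counting error only. CEL-Seq reads the 3′ end of each polyadenylated RNA, so levels were not divided by transcript length. A DSN (duplex-specific nuclease) step, which lowers abundant molecules, was part of the protocol, and its part in these levels was not tested. In RNA from a whole embryo, fewer cells with a transcript and less of it per cell cannot be told apart.

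Together the 98 models went from a trace to about 2 counts in 100 and then fell, though not to the share of 0 to 6 h. Their summed share of model counts had a median of 0.137% at 0 to 6 h (range 0.105 to 0.194%), 0.165% at 6 to 12 h (0.0806 to 0.781%) and 1.01% at 12 to 18 h (0.464 to 1.48%). At 18 to 24 h the share was 1.90% (1.56 to 2.14%, n = 8). It was 1.26% at 24 to 30 h (0.931 to 1.799%) and 0.837% at 30 to 36 h (0.415 to 1.198%). By 36 to 42 h it was 0.457% and by 42 to 48 h 0.369%. No embryo of the other 7 steps except 1 at 24 to 30 h had a share within the 18 to 24 h range, and the rule fixed that contrast for every step but 24 to 36 h. In the second number block the medians of the 6 steps lay between 0.386 and 0.578%.

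**Figure D1:**
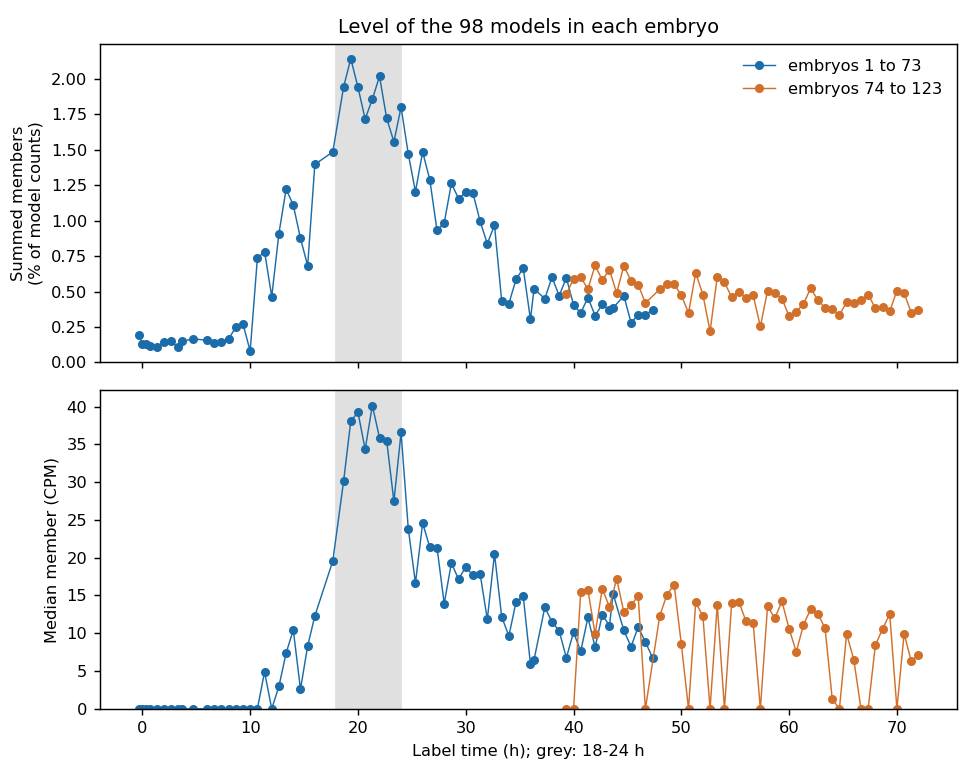
The upper panel plots the summed share of model counts (%) held by the 98 models in each embryo against label time (h), and the lower panel the level (CPM) of the median model in that embryo. The 8 embryos of 18 to 24 h, in the grey band, held 1.56 to 2.14% and embryos 74 to 123 held 0.219 to 0.684%.

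A few models made up most of that sum. The median 18 to 24 h level was 35.8 CPM (quartiles 17.6 and 79.3, range 10.2 to 4568). Of the 98, 5 models reached 1000 CPM and 20 reached 100 CPM, whereas 31 lay under 20 CPM. The 4 most abundant held 59.2% of the summed medians. Without those 4, the summed level still went from a median of 453 CPM at 0 to 6 h to 7666 CPM at 18 to 24 h, 4736 CPM at 24 to 30 h and 2169 CPM at 42 to 48 h. The number of the 98 models with at least 1 count went from a median of 39.5 per embryo at 0 to 6 h to 97 at 18 to 24 h, and was 92 at 42 to 48 h.

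Before 12 h most of them were close to the detection limit. The median was 0 CPM at both 0 to 6 h and 6 to 12 h in 54 models. In 22 models no count was found in any of the 10 embryos of 0 to 6 h, and 8 of these had none in the 19 embryos up to 12 h either. A count of 0 in a single embryo was not evidence of absence, since 3 counts amounted to as much as 14.6 CPM in the shallowest embryo of 6 to 12 h. Counts of 0 in all 10 or all 19 embryos bound the level more tightly, by an amount that was not worked out.

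The edges of the rule were narrow on the late side. The highest early level inside was 0.245 of the 18 to 24 h median, and the nearest model that missed that limit alone stood at 0.277. At 12 to 18 h the nearest inside was 0.636 and the nearest outside 0.668. At 36 to 48 h they were 0.3990 and 0.4002, with the limit at 0.4. Missing the late limit alone kept out 1500 models, against 44 for the early limit and 40 for the 12 to 18 h limit. The group is therefore the low end of a continuous range of late levels. The lowest 18 to 24 h median inside was 10.2 CPM and the highest outside was 9.83 CPM.

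**Figure D2:**
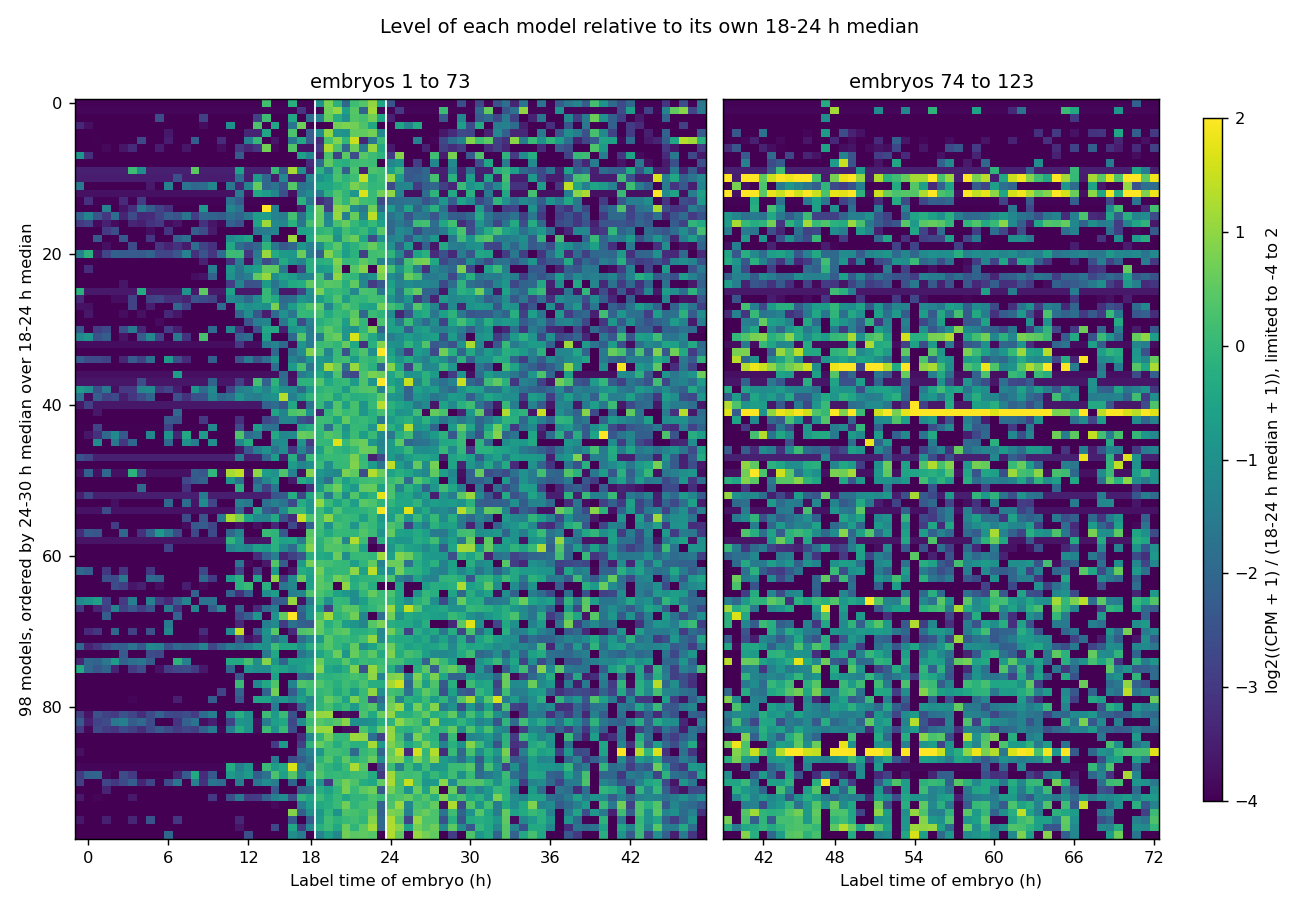
Colour gives the level of each of the 98 models (rows, ordered by 24 to 30 h median over 18 to 24 h median) in each embryo (columns, in order of label time in h) as log2 of (CPM + 1) over (18 to 24 h median + 1), cut off at both ends of the colour bar. The white lines bound 18 to 24 h, and the top rows show models that were high in some of those 8 embryos and low in others.

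The rise was spread over several hours. Running medians over 3 embryos were followed outward from the highest point of each model at 18 to 24 h. The unbroken stretch at or above 0.5 of the 18 to 24 h median began at a median label time of 1060 min (quartiles 960 and 1160, range 640 to 1320). In 50 models this was before the 18 to 24 h step began. A separate earlier rise was not counted, as in Nv.T1.8353.1, which was highest at 760 min with the stretch beginning at 1160 min. The stretch ended at a median of 1520 min (quartiles 1400 and 1680). It lasted a median of 7.33 h (quartiles 4.67 and 10). The highest running median fell at 18 to 24 h in 60 models, earlier in 11 and at 24 h or later in 27. In 92 models the stretch ended before 1800 min. A stretch could end at a few low embryos without a lasting fall. That of Nv.T1.32262.1 ended at 1160 min, though its 24 to 30 h median was 0.935 of its 18 to 24 h median. The ends and lengths are therefore those of unbroken stretches, not of lasting declines. Within 18 to 24 h itself there was no common direction: the first 4 embryos had the higher median in 47 models and the last 4 in 51.

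Embryos of nearly the same age differed widely in these models. Among the 8 embryos of 18 to 24 h, 45 models (45.9%) had at least 1 embryo under 0.25 of the median, against 10.7% of all 11764 models at 10 CPM or more. At least 2 such embryos were found in 21 models (21.4%), against 1.83%. All 8 embryos lay within 2-fold of the median in 14 models (14.3%), against 49.9%. The median coefficient of variation was 0.510 for the 98 and 0.355 for the 11764. The rule used these embryos' medians, so the comparison is a description. The low values were not confined to 1 library. Embryo 36, at 1400 min, was low in 22 models, and the other 7 embryos were low in 4 to 10 models each.

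The 3 most abundant models showed this spread. Nv.T1.63571.9155, which had the highest 18 to 24 h median (4568 CPM), stood at 233, 178, 7417, 8041, 7368, 5744, 3393 and 279 CPM in embryos 29 to 36 in order of label time. It was high in the middle 5 embryos and low in the first 2 and the last. Nv.T1.32262.1, the next in median (2555 CPM), stood at 5222, 5373, 142, 190, 176, 3100, 2010 and 3873 CPM in the same embryos. It was low in exactly 3 embryos, and in those Nv.T1.63571.9155 was at its highest. Nv.T1.32261.1, named because its identifier is next in number, stood at 5109, 5339, 144, 181, 187, 2994, 1973 and 3648 CPM. Its level was 0.942 to 1.06 times that of Nv.T1.32262.1 in every one of the 8.

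The alternation was also seen at 12 to 18 h, less regularly at 24 to 36 h, and at lower levels at 36 to 48 h. These models were singled out after their values were seen. Among the 16 embryos of 12 to 24 h, Nv.T1.63571.9155 was at or above 1000 CPM in 9. In 6 of these 9, Nv.T1.32262.1 lay under 1000 CPM, and in 3 both lay above it. In the other 7 embryos Nv.T1.63571.9155 was under 300 CPM and Nv.T1.32262.1 above 1000 CPM. No embryo had both under 1000 CPM. At 24 to 36 h Nv.T1.63571.9155 was at or above 1000 CPM in 8 of 18 embryos, with a range of 33.5 to 3694 CPM. Of those 8, Nv.T1.32262.1 was also above 1000 CPM in embryos 38, 39, 40, 45, 47 and 49, and under it in 51 and 52. In embryos 37, 41 to 44 and 48, Nv.T1.63571.9155 was under 300 CPM and Nv.T1.32262.1 above 1000 CPM. Both were under 1000 CPM in embryos 53, 54 and 55. At 36 to 48 h of the first number block, Nv.T1.63571.9155 stood at 467 to 1482 CPM in embryos 56, 58, 60, 63, 65, 66 and 71. Nv.T1.32262.1 stood at 12.5 to 329 CPM in those embryos. In the other embryos of these steps Nv.T1.63571.9155 was at 10.1 to 60.7 CPM and Nv.T1.32262.1 at 266 to 995 CPM. In the 49 embryos of the second number block Nv.T1.63571.9155 never passed 70.1 CPM (median 11.1 CPM, no count in 10). There Nv.T1.32262.1 ranged from 157 to 2119 CPM (median 919 CPM). Identifier stem 63571 covers 3153 models, so counts on near-identical models may have been split or shared, and that was not tested.

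**Figure D3:**
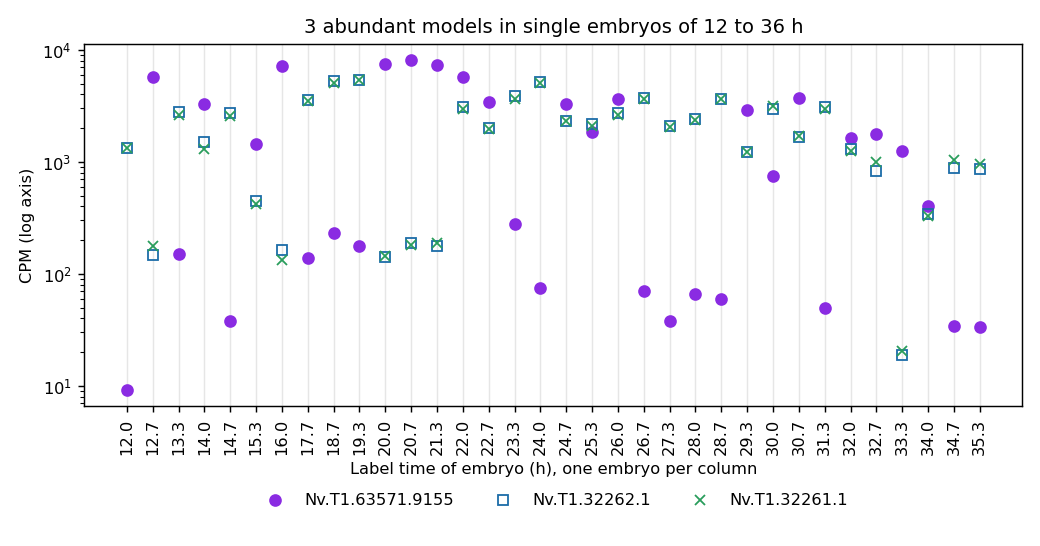
Each column is 1 embryo between 12 and 36 h, placed by label time (h), and the vertical log axis gives the level (CPM) of 3 abundant models. The filled circles (Nv.T1.63571.9155) sat either above 1000 CPM or under 300 CPM in all 16 embryos up to 24 h, and the squares and crosses (Nv.T1.32262.1 and Nv.T1.32261.1) overlay each other.

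Not every abundant model varied in this way. Nv.T1.11393.3, also chosen after its values were seen, had a lowest level of 943 CPM, a median of 1548 CPM and a highest of 2003 CPM at 18 to 24 h. At 24 to 30 h it had 143, 672 and 917 CPM, so that the 2 steps did not overlap. In the second number block its median was 66.1 CPM and its highest 284 CPM.

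The 2 models with the sharpest step were much less abundant. Nv.T1.5129.1 had a lowest level of 9.54 CPM, a median of 79.6 CPM and a highest of 193 CPM at 18 to 24 h. Its median was 5.72 CPM at 24 to 30 h (highest 10.1 CPM) and 2.72 CPM at 30 to 36 h. Single embryos outside the step were high too, at 133 CPM at 12 to 18 h and 101 CPM at 36 to 42 h. Nv.T1.30295.1 had a lowest level of 0, a median of 20.5 CPM and a highest of 29.9 CPM at 18 to 24 h, and no count in any of the 19 embryos up to 12 h. At 24 to 30 h its median was 1.89 CPM and its highest level 10.2 CPM. The steps overlapped through 2 embryos of 18 to 24 h, at 0 and 4.77 CPM, and the other 6 were at 17.5 CPM or more. Single embryos were high later too, at 14.8 CPM at 30 to 36 h and 59.2 CPM at 48 to 54 h of the second block, above every embryo of 18 to 24 h.

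The steps at 24 to 30 h and 30 to 36 h were not used by the rule, so a model could be higher there. In 85 of the 98 models the 18 to 24 h median remained the highest of the 8 steps of embryos 1 to 73. Another 12 were highest at 24 to 30 h and 1 at 30 to 36 h. Of the 2849 models at 10 CPM or more whose 18 to 24 h median exceeded the 5 other steps that the rule used, 70.5% had it at or above both of these steps as well. The 24 to 30 h median was 0.62 of the 18 to 24 h median in the middle model (quartiles 0.409 and 0.782, range 0 to 1.47), and the 30 to 36 h median 0.411 of it (0.2502 and 0.545). Over those 2849 models the ratios were 0.832 and 0.724. They did not have to meet the fold limits of the rule, so the comparison is a description. The 24 to 30 h median was under 0.2 of the 18 to 24 h median in 12 models, under 0.5 in 33 and above it in 12.

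**Figure D4:**
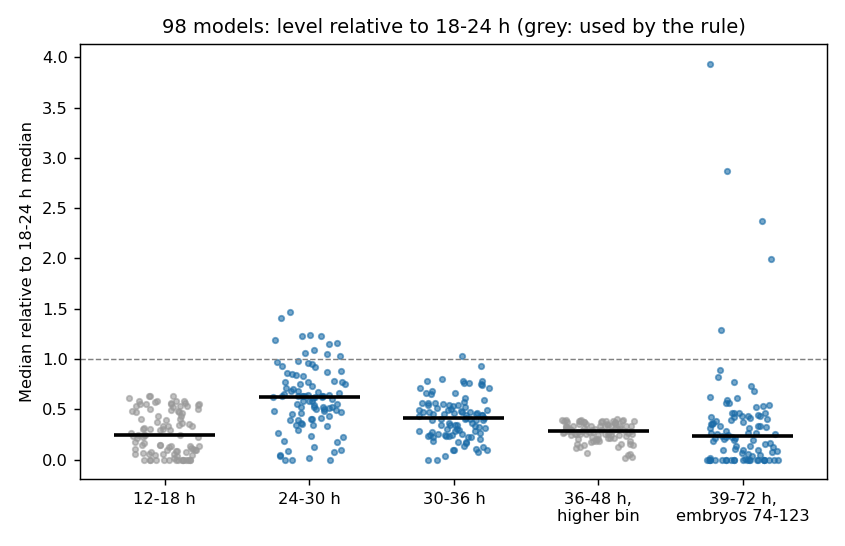
Each point is 1 of the 98 models, its median in a step divided by its own 18 to 24 h median, with the black line at the median of the 98. Grey steps were used to pick the models. The lines stand at 0.62 for 24 to 30 h and 0.411 for 30 to 36 h, and the dashed line marks a level equal to 18 to 24 h.

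The 2 models with the highest 24 to 30 h level relative to 18 to 24 h were Nv.T1.10688.1 and Nv.T1.4005.1. Nv.T1.10688.1 had a lowest level of 0, a median of 18.0 CPM and a highest of 30.0 CPM at 18 to 24 h, and 0, 26.4 and 45.2 CPM at 24 to 30 h. The steps overlapped over most of their range, with no count in 3 of the 9 later embryos. Nv.T1.4005.1 had 13.5, 58.2 and 132 CPM at 18 to 24 h, 25.3, 81.8 and 143 CPM at 24 to 30 h, and 9.63, 43.1 and 76.3 CPM at 30 to 36 h. These ranges overlapped too.

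Whether the models kept falling after 24 h was tested between 24 to 30 h and 30 to 36 h (9 embryos each). The rule used no values of these steps, but it required a high level before them and a low level after them. Only 1 model was called, and it rose. With edgeR's quasi-likelihood test over 12689 models, a call needed a Benjamini-Hochberg adjusted p under 0.05 and a log2 fold change of at least 1 in size. Over all models, 0.134% were called lower and 0.426% higher. Of the 98, 70 passed the filter on low counts, 0 were called lower and 1 higher. At an unadjusted p under 0.05 there were 15 lower and 1 higher of the 70 (22.9%), against 15.0% of all models tested. DESeq2 also called 0 lower and 1 higher, with 0.219% and 1.18% of its models called.

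The called model was Nv.T1.63571.7545. It had a lowest level of 4.37 CPM, a median of 54.5 CPM and a highest of 157 CPM at 18 to 24 h. At 24 to 30 h it had 0, 2.67 and 21.2 CPM, and at 30 to 36 h 5.13, 56.0 and 106 CPM. It was low in all 9 embryos of 24 to 30 h and above them in 6 of the 9 embryos of 30 to 36 h. The mean went from 8.03 ± 8.505 to 50.7 ± 38.4 CPM (SD, n = 9 each), with a log2 fold change of 2.70 and an SE of 0.63 (adjusted p = 0.0456 by edgeR). The call was lost when any 1 of 13 embryos was left out (37 to 43, 46, 48 and 52 to 55), with adjusted p from 0.0501 to 0.0993. It was also lost with spike-in scaling (adjusted p = 0.0757), under which 0.0315% of all models were called higher, against 0.295% in the fit without embryo 54. The model belongs to the large stem 63571 and had a median of 1.15 CPM in embryos 74 to 123.

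Most of the other models had a lower fitted level at 30 to 36 h, without passing the test one by one. The log2 fold change was negative in 61 of the 70 tested (87.1%), with a median of -0.52, against 51.3% of all models tested and a median of -0.01. Without the filter on low counts, which left all 98 in the fit, it was negative in 79 (80.6%) with a median of -0.49, against 46.9% and 0.06. Scaling to spike-in totals shifted the median of all models tested to -0.34, and that of the 70 to -0.90. For Nv.T1.32262.1 the log2 fold change was -1.04 ± 0.49 (SE; edgeR, adjusted p = 0.316) and for Nv.T1.4005.1 -0.99 ± 0.36 (adjusted p = 0.183). For Nv.T1.63571.9155 it was -0.27 ± 0.91 (adjusted p = 0.928), and between -0.76 (without embryo 47) and 0.04 (without embryo 38 or 40) when 1 embryo was left out. At this depth and spread the test recovered 14% of simulated 2-fold and 74% of simulated 4-fold changes, so falls near 2-fold were mostly not callable. A 2-fold change lies at the fold limit of a call, which lowers its recovery at any depth. With label time as a linear term and no fold threshold, which called 0.63% of all models lower and 1.8% higher, 3 of the 70 were called lower and 0 higher. The 3, named here because they were called, were Nv.T1.7571.1, Nv.T1.23942.1 and Nv.T1.42140.1.

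The second number block, from 39 h on, gave a different picture of the return to low levels. In 53 of the 98 models at least 1 of its 6 steps had a median at or above 0.4 of the 18 to 24 h median, which embryos 1 to 73 by rule did not reach at 36 to 48 h. The same held for 65.1% of the 416 models with an 18 to 24 h median of at least 10 CPM that met the rule's late limit, so the share among the 98 was no higher than in that background. The 416 include the 98, so these are not shares of separate sets. With 1 median over all 49 embryos of the block in place of the highest of 6, the count among the 98 was 30. That median was above the 18 to 24 h level in 5 models and 0 in 23. At equal label times of 39 to 48 h, 54 models had the higher median in the second block (12 embryos), 43 in the first (13 embryos) and 1 was equal. The first block's values at these times were used by the rule, so this contrast was not tested, and number block cannot be told apart from other differences between these embryos.

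By the highest of the 6 step medians of the second block over the 18 to 24 h median, the 2 highest models were Nv.T1.9166.1 (5.07) and Nv.T1.77143.1 (4.77). With 1 median over the whole block the ratios were 3.94 and 1.29, and 3 other models lay between them. Nv.T1.9166.1 had a lowest level of 1.79 CPM, a median of 26.8 CPM and a highest of 36.3 CPM at 18 to 24 h. At 36 to 48 h of embryos 1 to 73 it had 0, 5.75 and 68.9 CPM, and in the second block 0, 105 and 319 CPM. All 9 embryos of 54 to 60 h stood at 108 CPM or more, above every embryo of 0 to 48 h in the first block, of which the highest used had 77.4 CPM. Nv.T1.77143.1 had 2.85, 15.0 and 34.6 CPM at 18 to 24 h and 0, 19.2 and 137 CPM in the second block, with no count in 10 of its 49 embryos and none in the 19 embryos up to 12 h. Its medians by step ran from 4.32 CPM at 66 to 72 h, with no count in 4 of 10 embryos, to 71.3 CPM at 48 to 54 h. In the first block 1 embryo of 36 to 42 h stood at 58.3 CPM, above all 8 embryos of 18 to 24 h.

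**Figure D5:**
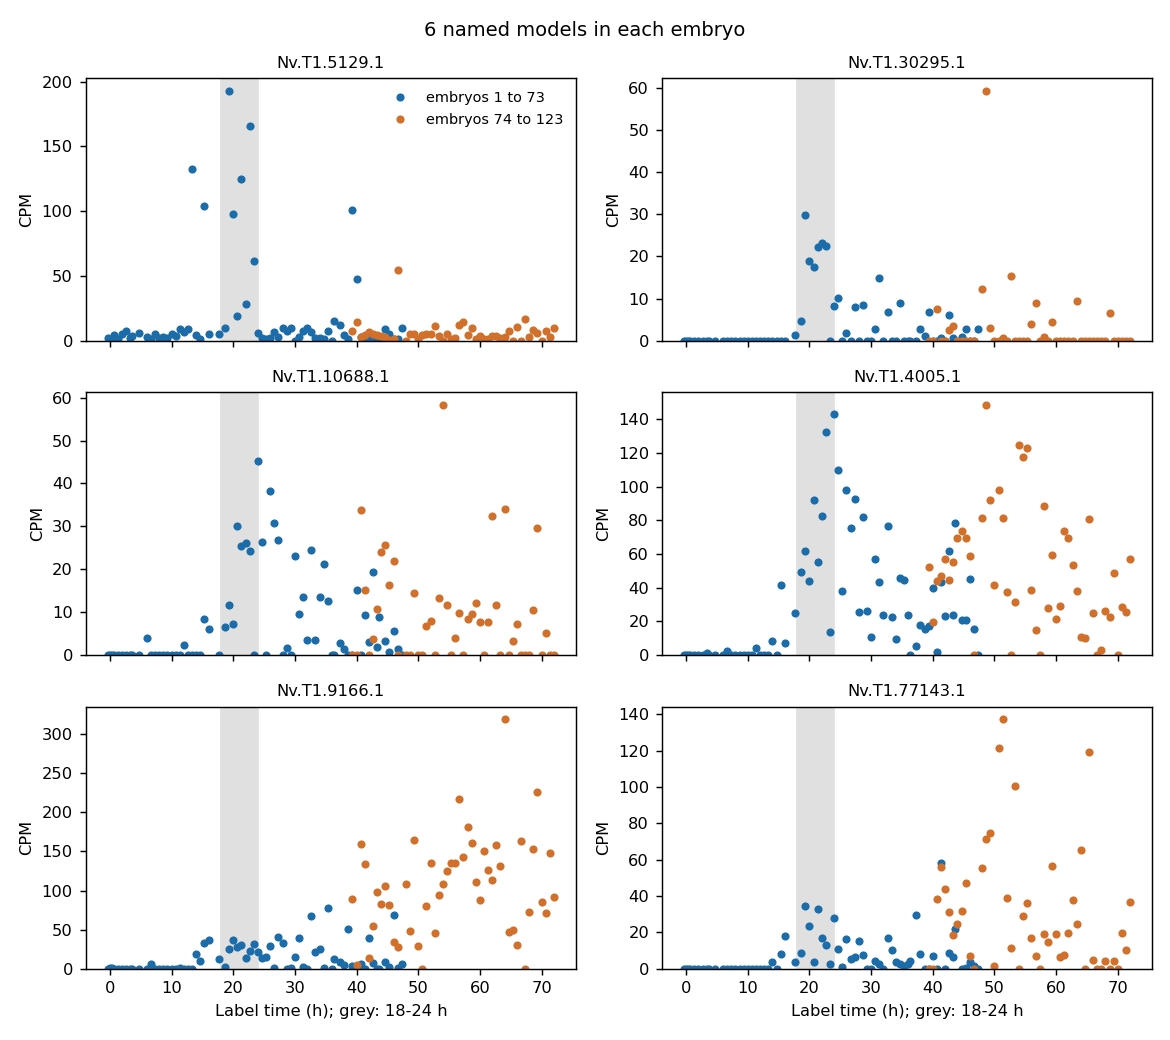
Each panel plots the level (CPM) of 1 model in each embryo against label time (h), with embryos 1 to 73 in blue, embryos 74 to 123 in orange and 18 to 24 h in grey. Nv.T1.5129.1 and Nv.T1.30295.1 are near 0 outside the grey band in most embryos, whereas Nv.T1.9166.1 is higher in the second block (median 105 CPM) than at 18 to 24 h (26.8 CPM).

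Within the second block, 60 to 72 h (19 embryos) was compared with 39 to 48 h (12 embryos) by the same test. Over 10842 models, 0.0461% were called lower and 0.101% higher. Of the 49 that passed the filter, 0 were called in either direction by edgeR. DESeq2, which called 0.12% of its models lower and 0.339% higher, also called 0 of the 98. At an unadjusted p under 0.05, 5 of the 49 were lower and 0 higher (10.2%, against 8.73% of all models tested). The median log2 fold change was -0.30 for the 49, with 40 negative (81.6%), and 0.00 for all models, with 49.9% negative. Without the filter it was negative in 74 of the 98 (75.5%), against 44.9% of all models. In the fit without the filter, where 2.93% of models were called lower and 4.51% higher, 0 of the 98 were called lower and 2 higher. For Nv.T1.9166.1 the log2 fold change was 0.78 ± 0.39 (SE; edgeR, adjusted p = 0.575) and for Nv.T1.32262.1 -0.57 ± 0.20 (adjusted p = 0.276). The test recovered 18% of simulated 2-fold changes, which lie at the fold limit of a call, and 58% of simulated 4-fold changes.

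Some of the models shared an identifier stem or had neighbouring numbers. The 98 had 89 stems, of which 6 held more than 1 of them, 15 models in all. The stem 63571 held 5 of the 98. The 88 other stems held 36 further models, 24 of them at 10 CPM or more at 18 to 24 h. Of these 24, 2 met the early limit, 9 the 12 to 18 h limit and 3 the late limit, and 12 met none. For all 11764 models the shares that met these limits were 19.8, 32.4 and 3.54%, against 8.33, 37.5 and 12.5% of the 24. Models that met every limit were left out of the 24 beforehand, whereas the 11764 include the 98, so the shares are not like for like. In 3 pairs with stems in sequence the second model was at 0.9302 to 1.5, 0.944 to 1.06 and 0.475 to 1.27 times the first over the 18 to 24 h embryos, the middle pair being Nv.T1.32261.1 and Nv.T1.32262.1. Whether neighbours in number are neighbours in the genome was not given in the sources used here.

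RNA content and depth are given beside these levels. Counts on transcript models per spike-in count had a geometric mean of 2.40 at 0 to 6 h, 4.79 at 18 to 24 h, 5.74 at 24 to 30 h, 4.66 at 30 to 36 h and 7.61 at 42 to 48 h. In the second block it lay between 8.64 and 16.9. Scaled to spike-ins, the rule picked 102 models, 57 of them among the 98. Embryo 27, at 1000 min, was left out by the rule. It had 56536 counts, a summed level of 3714 CPM and 36 of the 98 models detected, against 13964 CPM and 88 models in embryo 26 and 14839 CPM and 94 models in embryo 28. The part of RNA content and depth in the levels was not tested.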

How the data were processed

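The deposited counts are whole numbers without normalization, covering 40499 transcript models, 92 spike-ins and 5 rows of unassigned reads. Spike-ins and unassigned rows were kept out of library sizes and tests. CASAVA 1.8, Bowtie2 2.1.0 and HTSeq 0.5.4p3 are listed in the submitters' processing notes, and the genome build was not given in the sources used here. CPM and medians per 6 h step (360 min) were computed in Python 3.11.15 with pandas 2.3.3. Tests used edgeR 4.0.16 (quasi-likelihood, TMM, filterByExpr, Benjamini-Hochberg over all models tested) in R 4.3.3, were tested on simulated data, and had DESeq2 1.42.0 as an alternative. SE is the absolute log2 fold change over the square root of F. Embryos in a step differ in age, and the labels do not say whether they were siblings, so a p-value reflects the spread among these embryos, age included. Named models were the 2 with the highest 18 to 24 h median, the 2 sharpest (18 to 24 h median over the highest other median plus 1 CPM), the called ones with a mean of at least 10 CPM, and the 2 highest relative to 18 to 24 h in the second block and at 24 to 30 h. The members, rules and lists were chosen with earlier results of these data known. Embryos 10 and 111 had fewer than 50000 counts.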

Additional observations from a re-analysis of the deposited data

Results flagged for a closer look

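Of 41 groups of 4 to 10 embryos tested for a single distant value, 2 held one, and chance gives about 1 in 20. Nv.T1.63571.9155 at 30 to 36 h stood at 3694 CPM in embryo 47, with the next highest embryo at 1772 CPM. The summed level of the 98 models at 54 to 60 h of the second block was 2534 CPM in embryo 96, with the next lowest embryo at 4491 CPM. Embryo 96 had 69854 counts, the fewest of its step, and the part of depth in its value was not tested.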

How the results depend on the processing

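The rule picked 98 models, and between 67 and 130 under 20 of 23 other settings. A similar count does not mean the same models, and spike-in scaling kept only part of the 98, as given above. It picked 48 (41 of the 98) with means in place of medians, 165 with the late limit at 0.5 and 30 with it at 0.25 of the 18 to 24 h level. Leaving out 1 embryo of 18 to 24 h gave 95 to 111 models, of which 81 to 100 were highest at 18 to 24 h. With means, 43 of 48 were highest there. The count of models back at 0.4 of that level in the second block was 30 with 1 median over the block, chosen after seeing the data. At 30 to 36 h against 24 to 30 h, a linear term in label time called 3 of the 98 lower (0.63% of all models). The 1 model called higher became 0 without embryo 54, with spike-in totals and with linear label time, and 0 to 1 when single embryos were left out. At 60 to 72 h against 39 to 48 h, the fit without a filter called 2 higher, and the 31 fits without 1 embryo called 0 in both directions. No paired analysis was possible because the labels carry no replicate numbers and the groups of each test share no label time; embryos of equal label time lie in different number blocks. Models under 20 CPM rest on few counts in the shallower embryos.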
